A study of Saccharomyces cerevisiae with 12 samples.

Results

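The 40 genes described here encode the enzymes of peroxisomal fatty acid oxidation, the carriers that feed them, and the peroxins, the proteins that build the peroxisome, in the budding yeast Saccharomyces cerevisiae. They were taken by name from a list of fatty acid oxidation and peroxisome genes. Each was read by 1 probe set, a group of short DNA probes for one transcript, and the 40 are a subset of the 5449 yeast genes measured on the array. Total RNA of cultures grown at 0.25%, 0.5%, 1% and 2% glucose was hybridised to one-colour Affymetrix arrays, with 3 biological replicates at each level and 12 arrays in all. The cultures thus differed in the labels only by glucose level. The sources used here give no strain, genotype or growth phase and do not explain the word log in the sample titles.

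In yeast, beta-oxidation of fatty acids takes place only in the peroxisome, which imports folded enzymes through receptors that recognise short targeting signals. Growth on a fatty acid such as oleate induces these enzymes through the Oaf1-Pip2 activator together with Adr1, and high glucose represses them. The comparison therefore asks whether less glucose alone, with no fatty acid named in the labels, goes with more of these transcripts.

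None of the 40 genes passed in the 5 comparisons of glucose levels made here, 0.25%, 0.5% and 1% against 2%, 0.5% against 1% and 0.25% against 0.5%; 0.25% against 1% was not tested. At 0.25% glucose against 2%, the widest step, 237 of all 5449 genes passed limma's moderated test at an adjusted p under 0.05, which is 4.35% of them (562 with the replicate number as a block). Without adjustment 4 of the 40 had a p under 0.05, or 10%, against 16.4% of all genes. These were POX1, ECI1 and TES1 with higher signals, 3 genes where 10.6% of all genes met that limit, and PEX8 with a lower one, against 5.87%. In a bulk culture, fewer cells with a transcript and less of it per cell cannot be told apart. The regulator gene ADR1, which is not one of the 40, had a 1.91 log2 change in the same comparison, and it is described after them.

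Signals here are linear array intensities, and a log2 change is the lower glucose level minus the higher one, so that a positive value means more signal at less glucose. On all 12 arrays the deposited values had a trimmed mean of 500, and the median gene lay between 7.89 and 8.08 on the log2 scale. The 5 glucose check genes all passed at 0.25% against 2%: HXT7, HXK1 and SUC2 rose and HXT1 and HXT3 fell, from a log2 change of -4.52 for the low-affinity transporter HXT1 to 2.73 for the high-affinity transporter HXT7, whose probe set is of the type shared between similar genes. The ratio of 3' to 5' control probes over 7 genes, a sign of RNA quality, was 0.88 ± 0.04 on the log2 scale at 0.25%, 0.91 ± 0.03 at 0.5%, 0.88 ± 0.06 at 1% and 1.28 ± 0.12 at 2% (SD, n = 3 each). Ribosomal RNA, read by 17 probe sets, had a log2 signal of 8.90 ± 0.70, 9.08 ± 0.63, 8.92 ± 0.70 and 7.77 ± 0.94 at the same levels (mean of the probe sets ± SD over 3 arrays). RNA quality moved with the 2% arrays: the ratio was 1.19 to 1.42 on them and 0.82 to 0.94 on all others. The ratio thus cannot be told apart from the 2% level, and its part in the results was not tested. A fit with the ribosomal RNA signal, a different measure, as a covariate passed 0 of the 40 genes in any test. The fit without that covariate also passed 0, so this says nothing about RNA quality. The same replicate number went with shared deviations across levels, so counts over all genes are also given with that number as a block.

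Many of these genes were dim. A signal of 111 marked percentile 25 of all gene means, and 22 of the 40 had a mean at or below it, where 25% of all genes lie by definition. The dim ones included 8 of the 9 beta-oxidation enzymes and 6 of the 7 transport and carnitine genes, while peroxins of the docking complex (3 of 4), the ubiquitination machinery (4 of 6) and the membrane import pair (2 of 2) were mostly above it. So were 5 of the 8 genes of size and division, and 2 of the 4 import receptors. The median spread between replicates was a log2 SD of 0.19 for the 22 dim genes and 0.13 for the 18 brighter ones. At 0.25% against 2% the median standard error of the log2 change was 0.27 for the 9 enzymes, against 0.14 for all 40. Among the 9 it ran from 0.12 to 0.75.

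**Figure D1:**
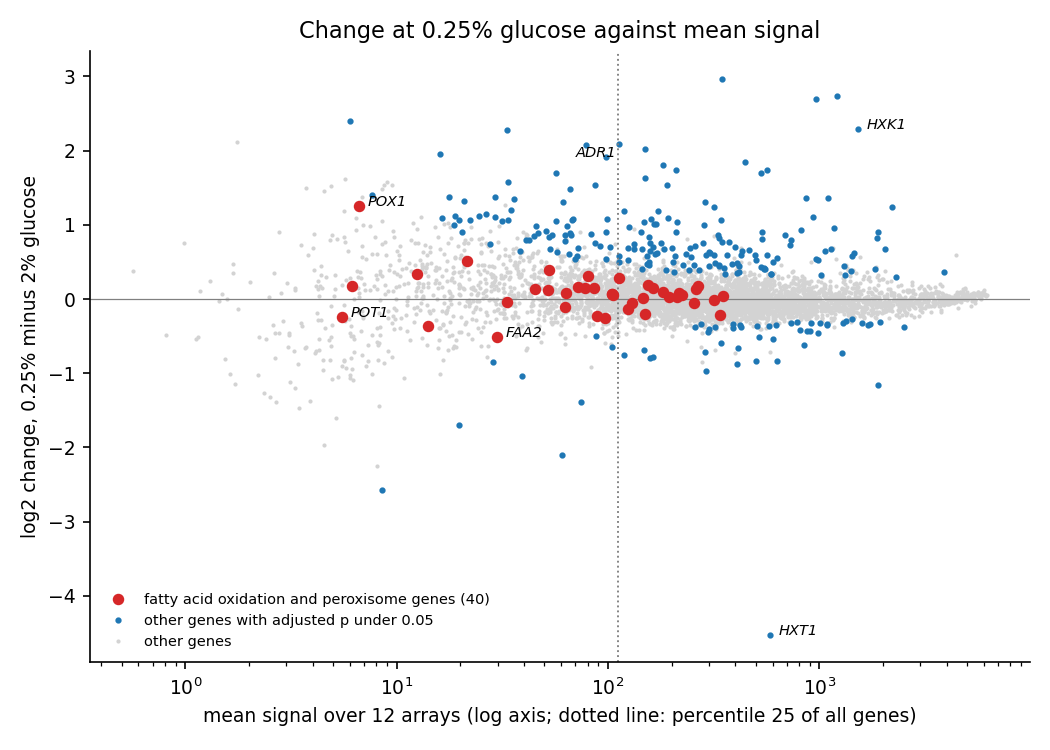
Log2 change of signal at 0.25% against 2% glucose (vertical axis) against mean signal over the 12 arrays (horizontal axis, log scale) for 5449 genes; the 40 fatty acid oxidation and peroxisome genes are red, other genes with an adjusted p under 0.05 blue and the rest grey. The 40 genes lie between -0.51 (FAA2) and 1.25 (POX1), with 22 of them left of or on the dotted line at percentile 25.

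The beta-oxidation enzymes carry out the pathway itself, and 0 of the 9 passed at any level. Only 4.35% of all genes passed at 0.25% against 2%. For groups this small, here and below, a count of 0 is therefore not a result about the role. At 0.25% against 2%, 6 of the 9 log2 changes were above 0 and 3 below, against 50% of all genes above 0, with a median of 0.28. The first 3 enzymes of the cycle are given array by array although they were picked after their values were seen. POX1 encodes acyl-CoA oxidase, which opens the cycle and releases hydrogen peroxide. Its signal was 9.04, 7.46 and 8.0 at 0.25% glucose, 3.02, 5.89 and 10.4 at 0.5%, 9.12, 6.55 and 9.21 at 1%, against 2.11, 4.41 and 4.31 at 2%. The 3 arrays at 0.25% all lay above the 3 at 2%, and so did the 3 at 1%, while those at 0.5% overlapped with 2%. The log2 change at 0.25% was 1.25 (95% interval 0.25 to 2.25) with an adjusted p of 0.179, and at 1% it was 1.26 with an adjusted p of 0.55. All 12 values were among the dimmest on the array, 2.37% of genes having a lower mean. With 16 added to every signal before the logarithm the log2 change at 0.25% was 0.30 (adjusted p = 0.215). An offset above every POX1 signal shrinks a log2 change by arithmetic, so the smaller value says nothing about the change itself.

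FOX2 encodes the multifunctional enzyme that hydrates and then oxidises the acyl-CoA intermediate. Its signal was 121, 92.6 and 103 at 0.25% glucose, 93.3, 105 and 119 at 0.5%, 113, 97.3 and 102 at 1%, against 101, 101 and 100.1 at 2%. The levels overlapped throughout, and the 95% interval of the log2 change at 0.25% against 2% ran from -0.22 to 0.34 around 0.06 (adjusted p = 0.866). POT1 encodes the thiolase that splits off acetyl-CoA at the end of each turn. Its signal was 2.13, 6.55 and 9.28 at 0.25% glucose, 0.582, 5.82 and 7.25 at 0.5%, 4.53, 3.74 and 6.03 at 1%, against 3.14, 10.7 and 6.38 at 2%. The values scattered within each level as widely as between levels, 1 of them lay under the floor of 1 set before the logarithm, and the interval at 0.25% against 2% (-1.84 to 1.35) holds both a 2-fold rise and a 2-fold fall.

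Among the accessory enzymes, which handle unsaturated chains, activation and release, TES1 and ECI1 had an unadjusted p under 0.05 at 0.25% against 2%. TES1 encodes the peroxisomal thioesterase that frees fatty acids from coenzyme A. Its signal was 111, 127 and 133 at 0.25% glucose, 125, 105 and 111 at 0.5%, 107, 114 and 113 at 1%, against 93.4, 99.0 and 114 at 2%. The lowest array at 0.25% was below the highest at 2%, so these groups overlapped, and the log2 change was 0.28 (95% interval 0.03 to 0.54, adjusted p = 0.241). With the ribosomal RNA signal as a covariate it was 0.13 (adjusted p = 0.717). The mean of that signal was itself lower at 2%, so the covariate overlaps with the comparison. ECI1 encodes the enoyl-CoA isomerase needed for unsaturated chains. Its signal was 97.7, 90.7 and 80.9 at 0.25% glucose, 70.9, 80.2 and 82.1 at 0.5%, 83.2, 74.5 and 87.1 at 1%, against 76.0, 74.6 and 67.1 at 2%. The 3 arrays at 0.25% all lay above the 3 at 2%, with a log2 change of 0.30 and an adjusted p of 0.234. 

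The related isomerase gene DCI1 averaged 23.4 ± 4.31 at 0.25% against 16.9 ± 6.14 at 2% (SD, n = 3 each, as for all means given with ±), a log2 change of 0.51 with overlapping arrays. Without replicate 2 at 2% the change of DCI1 was 0.79 (adjusted p = 0.13). SPS19, for the dienoyl-CoA reductase, averaged 60.7 ± 16.6 at 0.25%, 61.2 ± 11.4 at 0.5%, 43.5 ± 11.2 at 1% and 45.4 ± 3.79 at 2%. It was the only one of the 40 with an unadjusted p under 0.05 between 0.5% and 1%, and its adjusted p there was 0.998. FAA2, for the peroxisomal medium-chain acyl-CoA synthetase, had the most negative change of the 40 at 0.25% against 2%. Its signal was 37.8, 17.8 and 21.4 at 0.25% glucose, 21.7, 31.3 and 24.7 at 0.5%, 44.5, 27.1 and 27.4 at 1%, against 33.7, 37.6 and 32.6 at 2%. The arrays at 0.25% overlapped with those at 2% because of replicate 1 at 0.25%, and the log2 change was -0.51 (95% interval -1.10 to 0.09, adjusted p = 0.394). Without that replicate its slope passed (-0.27 per halving, adjusted p = 0.0473). CTA1, the peroxisomal catalase that removes the hydrogen peroxide made by the oxidase, averaged 11.1 ± 0.943 at 0.25% against 15.2 ± 6.04 at 2%, with the lowest and the highest of its 12 values both at 2%. The log2 change of CTA1 was -0.36, and it was -0.74 without replicate 1 at 2% and -0.11 without replicate 2.

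**Figure D2:**
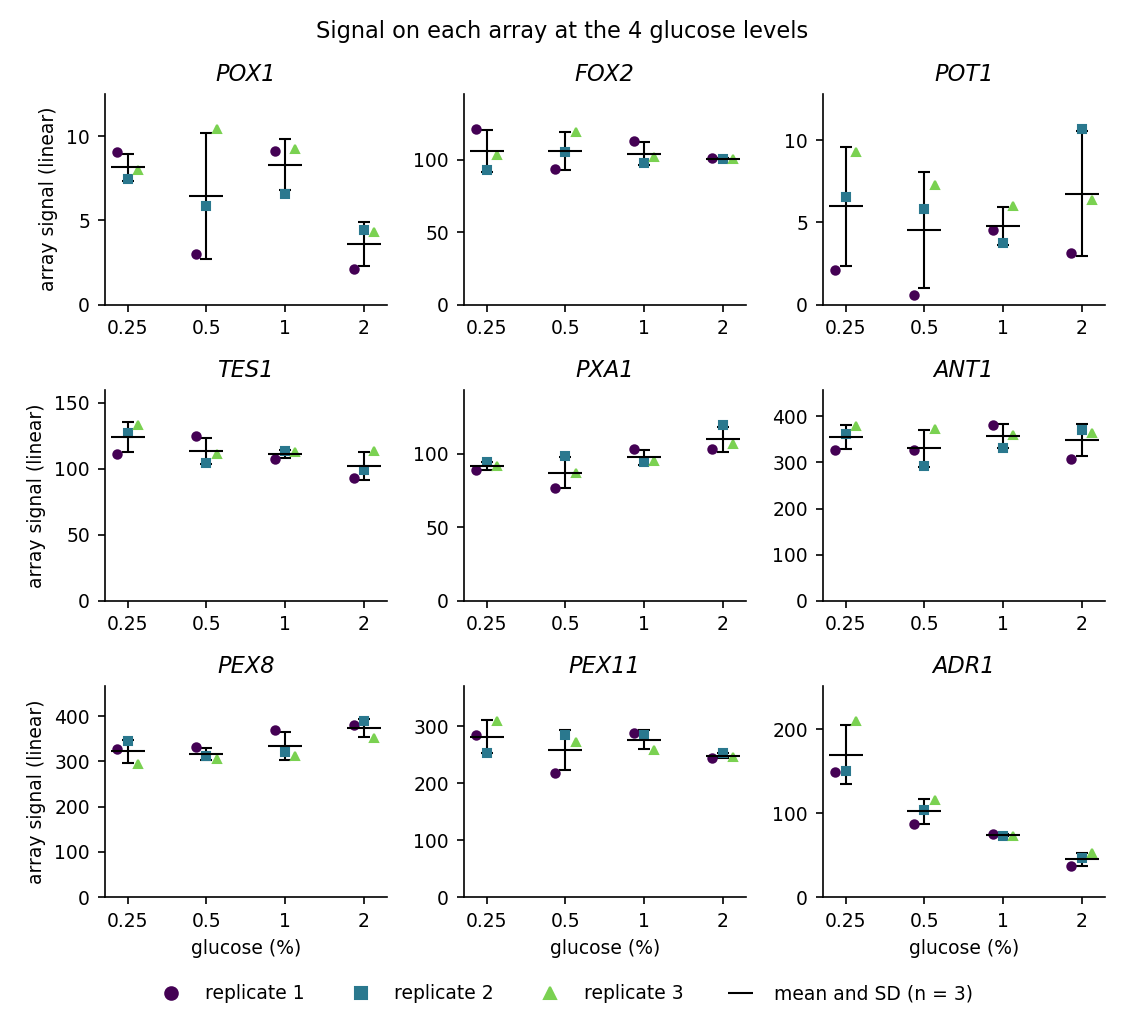
Linear array signal (vertical axes, starting at 0) at 0.25%, 0.5%, 1% and 2% glucose (horizontal axes) for 9 genes; symbols are the replicates and bars the mean and SD (n = 3). ADR1, a regulator outside the set of 40, averages 169.8 ± 34.8 at 0.25%, 102 ± 14.4 at 0.5%, 73.6 ± 1.29 at 1% and 45.0 ± 7.75 at 2%, while FOX2, ANT1 and PEX11 overlap between all levels except for PEX11 at 1% against 2%.

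The carriers and the carnitine enzymes move acyl-CoA, ATP and acetyl units across membranes, and 0 of the 7 passed at any level. At 0.25% against 2% their log2 changes ran from -0.26 to 0.34 with 5 of 7 above 0, against 50% of all genes. PXA1 and PXA2 encode the partner subunits of the ABC transporter that brings activated long-chain fatty acids into the peroxisome. PXA1 had a signal of 88.7, 94.6 and 91.7 at 0.25% glucose, 76.6, 98.1 and 86.8 at 0.5%, 103, 94.2 and 95.1 at 1%, against 103, 119.6 and 106 at 2%. All arrays at 0.25%, 0.5% and 1% lay below the 3 at 2%, at 1% by a narrow margin, and the 3 comparisons share the 2% arrays. The log2 change was -0.26 at 0.25% (adjusted p = 0.306), -0.34 at 0.5% (adjusted p = 0.215) and -0.17 at 1% (adjusted p = 0.827). PXA1 had the largest share of its log2 variance between glucose levels of the 40, 64.5%, and its slope passed in 1 alternative, quantile normalization (-0.11 per halving, adjusted p = 0.0356).

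Its partner PXA2 averaged 34.1 ± 6.98 at 0.25% against 35.9 ± 12.9 at 2%, a log2 change of -0.03, and 61.6% of its variance went with the replicate number. ANT1, the peroxisomal ATP carrier and the only gene of these 7 above percentile 25, had a signal of 327, 362 and 378 at 0.25% glucose, 328, 293 and 373 at 0.5%, 382, 332 and 359 at 1%, against 309, 371 and 365 at 2%. All levels overlapped, and the 95% interval at 0.25% against 2% was -0.20 to 0.27 around 0.03. CAT2, the carnitine acetyltransferase of peroxisomes and mitochondria, averaged 52.1 ± 7.54 at 0.25% against 47.4 ± 5.87 at 2%. At 1% its arrays averaged 38.8 ± 0.563 and did not overlap with those at 2%, with a log2 change of -0.28 and an adjusted p of 0.807. YAT1 and YAT2, carnitine acetyltransferases outside the peroxisome, had log2 changes of 0.08 and 0.12 at 0.25%. CRC1, the mitochondrial acetylcarnitine carrier, had signals of 1.62 to 18.8, too low and too scattered to bound a change more closely than -1.02 to 1.69.

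Import receptors bind enzymes in the cytosol: PEX5 recognises the targeting signal at the C-terminus, and PEX7, with PEX18 or PEX21 as a co-receptor, the one near the N-terminus. Of these 4, 0 passed. PEX5 averaged 121 ± 13.4 at 0.25% against 132 ± 5.17 at 2%, a log2 change of -0.13, and PEX7 averaged 177 ± 7.07 at 0.25% against 159.7 ± 5.86 at 2%, a change of 0.15 with all 3 arrays at 0.25% above the 3 at 2%. PEX21 averaged 84.1 ± 9.46 at 0.25% against 98.5 ± 2.14 at 2%, with all 3 arrays at 0.25% below those at 2% and a change of -0.23 (adjusted p = 0.459). PEX18 had signals of 2.62 to 9.52 and an interval of -0.89 to 1.23, which holds a 2-fold rise.

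Docking proteins hold the loaded receptor at the peroxisomal membrane, and 0 of the 4 passed. PEX8, a peroxin of the inner face that links docking to the later ubiquitination step, was 1 of the 3 brighter genes with the largest changes at 0.25%, beside TES1 and PEX29. Its signal was 328, 345 and 295 at 0.25% glucose, 331, 312 and 306 at 0.5%, 369.7, 320.4 and 312 at 1%, against 381, 389 and 352 at 2%. Every array at 0.25% and 0.5% lay below every array at 2%, while those at 1% overlapped with 2%. The log2 change was -0.22 at 0.25% (95% interval -0.42 to -0.01, adjusted p = 0.264) and -0.24 at 0.5% (adjusted p = 0.267). Once replicate numbers were fitted as a block its adjusted p was 0.0801 at 0.25% and 0.063 at 0.5%, the lowest of the 40 in both comparisons, and with array weights the change at 0.5% passed (-0.26, adjusted p = 0.0432). PEX13 and PEX14, the main docking proteins, had log2 changes of 0.02 and -0.05, and PEX17 one of 0.15.

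The ubiquitination and recycling proteins return the receptor to the cytosol, and 0 of the 6 passed. PEX2 and PEX10 encode ubiquitin ligases, and their log2 changes at 0.25% were 0.05 and 0.18. PEX4, the ubiquitin-conjugating enzyme, averaged 79.7 ± 6.17 at 0.25% against 71.0 ± 1.68 at 2%, with all 3 arrays at 0.25% above the 3 at 2% and a change of 0.16. PEX22, which anchors PEX4 in the membrane, had a signal of 265, 257 and 181 at 0.25% glucose, 230.3, 210.1 and 210.2 at 0.5%, 223, 199 and 161 at 1%, against 257, 234 and 174 at 2%. Replicate 3 was lowest at 0.25%, 1% and 2%, and 65.7% of the log2 variance of PEX22 went with the replicate number against 18.8% with the glucose level. PEX6, an ATPase that pulls the receptor out, and PEX15, its anchor, had changes of -0.06 and 0.05. PEX3 and PEX19 insert membrane proteins and had changes of 0.02 and 0.13, with 95% intervals of -0.22 to 0.26 and -0.26 to 0.52.

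Genes that set peroxisome size and number include PEX11, which drives division and is induced with the enzymes when yeast grows on oleate. Of these 8, 0 passed. PEX11 had a signal of 284, 252 and 309.5 at 0.25% glucose, 218, 285 and 273 at 0.5%, 288, 284 and 258 at 1%, against 245, 253 and 247 at 2%. The arrays at 0.25% overlapped with those at 2% through replicate 2, and those at 1% lay wholly above 2%; the log2 changes were 0.18 at 0.25% (95% interval -0.06 to 0.42, adjusted p = 0.467) and 0.15 at 1% (adjusted p = 0.828). PEX29, one of the membrane proteins that affect peroxisome number, had a signal of 128, 148 and 149 at 0.25% glucose, 178, 142 and 144 at 0.5%, 146, 138 and 144 at 1%, against 156, 181 and 151 at 2%. All 3 arrays at 0.25% lay below the 3 at 2%, with a log2 change of -0.20 and an adjusted p of 0.446. The PEX11 relatives PEX25 and PEX27 had changes of -0.01 and 0.15. PEX28, PEX30, PEX31 and PEX32, membrane proteins that regulate size and number, ranged from -0.11 (PEX28) to 0.09 (PEX30).

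**Figure D3:**
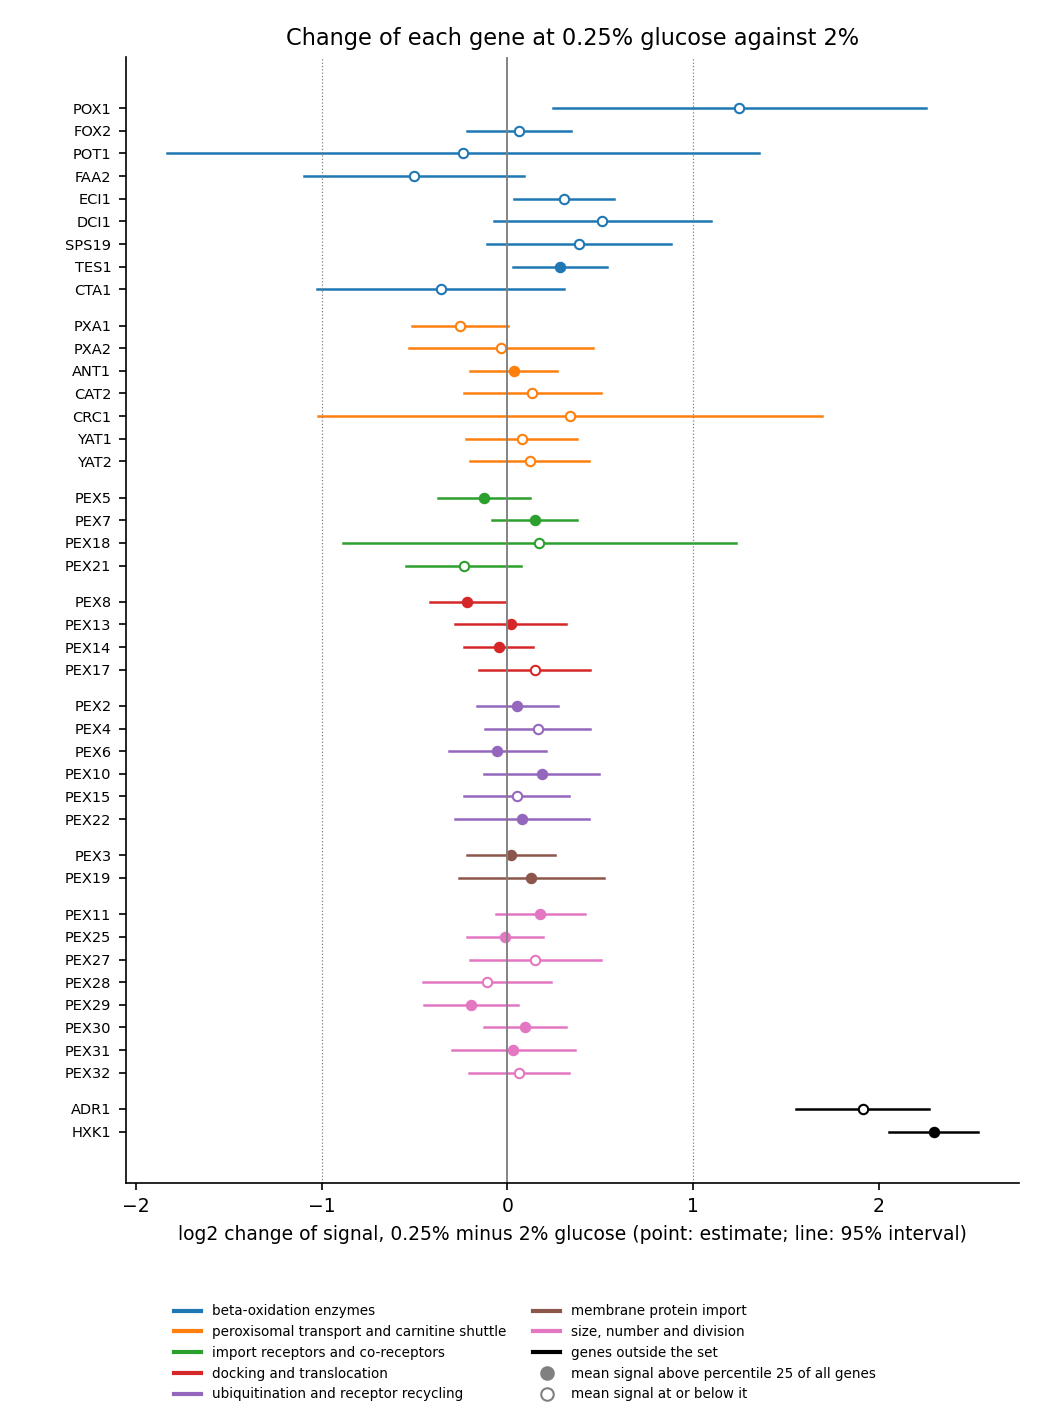
Log2 change of signal at 0.25% minus 2% glucose with its 95% moderated interval for the 40 genes, coloured by role, and for ADR1 and HXK1; filled points have a mean signal above percentile 25 of all genes and dotted lines mark a 2-fold change. The intervals of all 18 filled points of the set lie inside the dotted lines, and those of POX1, POT1, DCI1, CRC1 and PEX18 pass the line of a 2-fold rise.

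The size of change that the arrays could have missed differed by gene. The standard errors and intervals here come from the fit without the replicate number as a block. That number held a median of 16.5% of the log2 variance of the 40, and intervals with the block are not given. At 0.25% against 2% the standard error of the log2 change ran from 0.09 to 0.75 over the 40 genes, with a median of 0.14, against a median of 0.12 over all genes. The 95% interval lay below a 2-fold rise for 35 of the 40, against 93.3% of all genes, and within 2-fold either way for 33, against 90.8%. All 18 genes above percentile 25 were within 2-fold either way, against 15 of the 22 below it. A rise of 2-fold was thus not within the interval for FOX2, ECI1, SPS19, TES1, FAA2 and CTA1 among the enzymes, while for POX1, POT1 and DCI1 it was. The changes of FAA2 and CTA1 were negative and their intervals held a 2-fold fall, so only 4 of the 9 enzymes were within 2-fold either way.

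Across the set, the median log2 change at 0.25% against 2% was 0.06, against -0.00007 over all genes. It was -0.0058 with quantile normalization, the opposite direction, and between 0.009 (without replicate 3 at 2%) and 0.1278 (without replicate 2 at 2%) with 1 array left out. Of the 40 changes 27 were above 0, or 67.5%, against 50% of all genes. The sign was not stable for many: 20 of the 40 kept theirs in every alternative setting and every fit without 1 array that held the gene, and 20 changed it in at least 1. The filters on dim genes hold no value for the 22 dim ones. The 0.25% and 2% arrays did not overlap for 9 genes, 22.5% against 20.5% of all genes. The 0.25% arrays were wholly above 2% for POX1, ECI1, YAT2, PEX7 and PEX4, 5 genes where the share over all genes was 12.1%, and wholly below for PXA1, PEX21, PEX8 and PEX29, 4 genes against 8.46%.

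At 0.5% against 2%, 0 of the 40 passed, beside 74 of all genes or 1.36% (407 with the replicate block). Unadjusted, 2 of the 40 had a p under 0.05, PXA1 and PEX8, both lower at 0.5%, against 13.7% of all genes (8.09% lower and 5.62% higher). The groups did not overlap for 7 genes, against 20.4% of all genes: PEX30 above, against 7.32%, and FAA2, PXA1, PEX5, PEX21, PEX8 and PEX4 below, against 13%. At 1% against 2%, 0 passed beside 10 of all genes (0.184%, and 49 genes with the replicate block), and 1 of the 40, POX1, had an unadjusted p under 0.05, against 7.18%. There 7 genes did not overlap, against 11.4% of all genes: POX1, YAT1 and PEX11 above, against 6.22%, and PXA1, CAT2, PEX14 and PEX29 below, against 5.14%. The median log2 change of the 40 was -0.04 at 0.5% and -0.02 at 1%, against -0.04 and -0.01 over all genes. With median scaling both turned positive (0.018 at 0.5% and 0.0077 at 1%). Changes above 0 numbered 16 of 40 at 0.5% and 19 of 40 at 1%, against 42.1% and 46.1% of all genes.

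Between neighbouring levels, 0 of the 40 passed at 0.5% against 1%, beside 0.0734% of all genes, or at 0.25% against 0.5%, beside 0.11%. Unadjusted, 1 and 0 of the 40 had a p under 0.05 in these steps, against 3.34% and 3.76% of all genes. The moderated F-test for a difference at any level passed 0 of the 40, beside 2.22% of all genes, and 0 had an unadjusted p under 0.05, against 11%. The slope on log2 glucose, given per halving of glucose, passed 0 of the 40, beside 5.4% of all genes, and 6 had an unadjusted p under 0.05, against 17.9%. Of these 6, ECI1, SPS19 and TES1 had slopes above 0 (0.08, 0.17 and 0.09 per halving), against 10.4% of all genes at that limit. FAA2, PXA1 and PEX8 had slopes below 0 (-0.18, -0.09 and -0.07), against 7.47%. In fits that also held the replicate number, 0 of the 40 passed in each of these 7 tests, while the counts over all genes were 562 at 0.25%, 407 at 0.5% and 49 at 1% against 2%, 17 at 0.5% against 1%, 13 at 0.25% against 0.5%, 371 in the F-test and 572 for the slope.

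**Figure D4:**
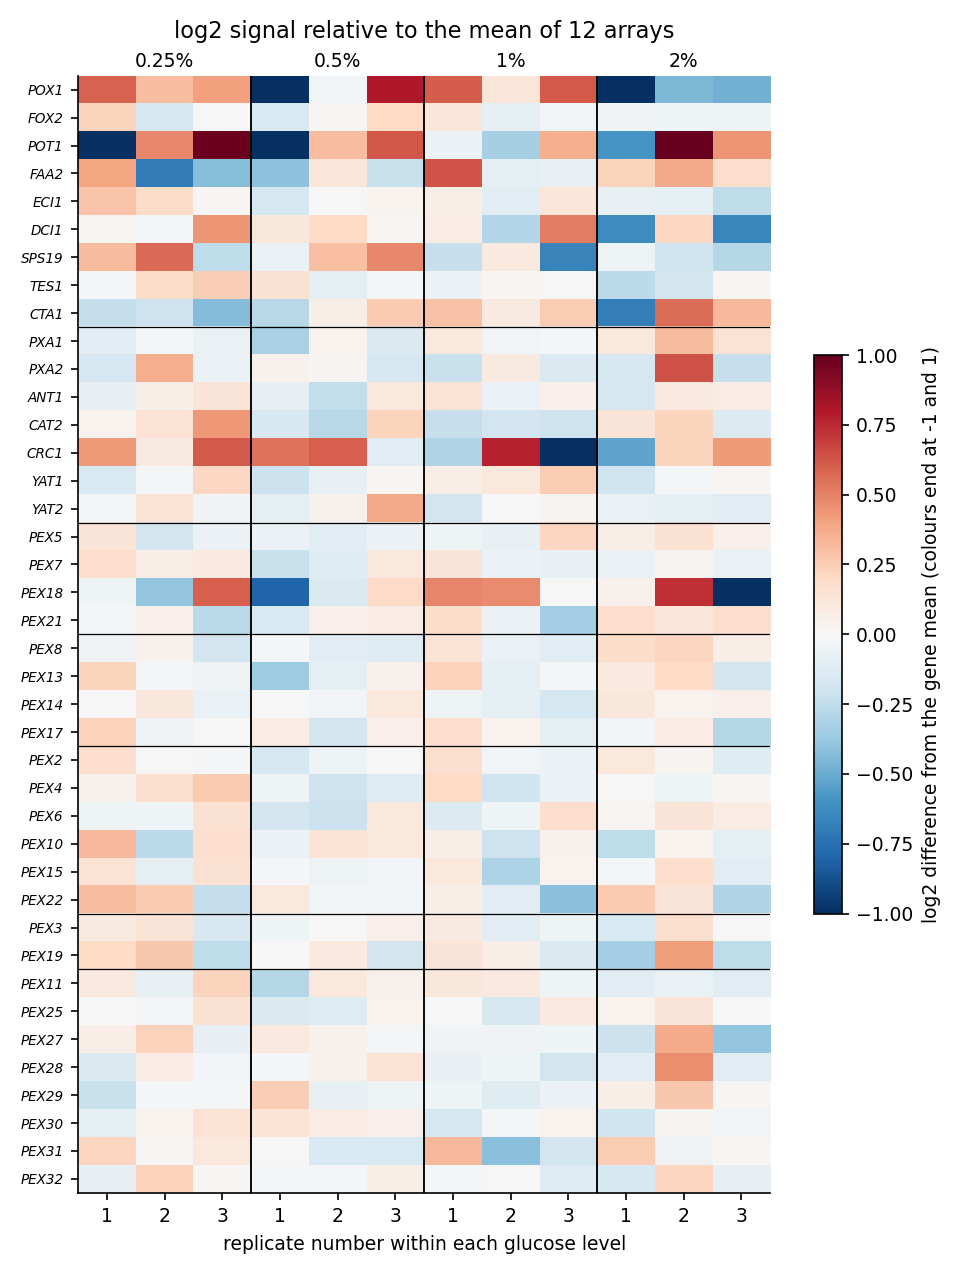
Log2 signal of each of the 40 genes (rows, grouped by role with lines between roles) on each of the 12 arrays (columns, replicates within 0.25%, 0.5%, 1% and 2% glucose), relative to the gene's mean over the arrays; red is higher, blue lower, and colours end at a 2-fold difference. Replicate 2 at 2% held the highest value for 12 of the 40 genes, and dim genes such as POT1 and CRC1 show the widest scatter.

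A median of 28.5% of the log2 variance of the 40 genes lay between glucose levels and 16.5% between replicate numbers, against 27.5% and 27.3% over all genes. The replicate number took the larger share for 15 of the 40, or 37.5%, against 49.4% of all genes, and that share was highest for PEX22, PXA2 and POT1. Among the 12 arrays, replicate 2 at 2% glucose stood out: it held the highest value for 12 of the 40 genes (30%), against 20.0% of all genes, and the lowest for 0. PXA2, PEX19, PEX27, PEX28 and CTA1 were among these 12. PEX19, for example, had 204, 346 and 217 at 2%. Without that array the median log2 change of the 40 was 0.13 at 0.25%, 0.05 at 0.5% and 0.05 at 1% against 2%, and 0 of the 40 passed in these comparisons.

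Regulators of oleate-responsive and glucose-repressed genes are given as a list for comparison. Of 5 such genes, 1 passed, beside 4.35% of all genes at 0.25% against 2%. ADR1, the zinc finger activator of glucose-repressed genes, which in yeast acts on POX1, FOX2, POT1 and CTA1 among others, had a signal of 149, 150.4 and 210.0 at 0.25% glucose, 87.2, 103 and 116 at 0.5%, 75.1, 73.2 and 72.6 at 1%, against 36.8, 46.0 and 52.2 at 2%. The levels did not overlap, and each lower glucose level was above the next. The log2 change was 1.91 at 0.25% (95% interval 1.56 to 2.27, adjusted p = 4.62e-06), 1.19 at 0.5% (adjusted p = 0.00139) and 0.72 at 1%, which did not pass (adjusted p = 0.142). The transcript of ADR1 was thus 3.76-fold higher at 0.25%. In that comparison 0 of the 40 passed, near the 4.35% of all genes, so this count is not a result about the 40. Among the targets named, the 95% intervals of POX1 and POT1 held a 2-fold rise. A difference between ADR1 and the 40 was not itself tested. The mean signal of ADR1 lay below percentile 25, so the alternatives that leave out dim genes give no value for it. OAF1 and PIP2, the oleate-responsive activator pair, had log2 changes of -0.17 (adjusted p = 0.491) and 0.14 (adjusted p = 0.732). OAF3, a repressor of oleate-responsive genes, had -0.07, and SNF1, the kinase that relieves glucose repression, -0.03.

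Of 13 other enzymes that enter peroxisomes, PNC1 passed at 0.25% against 2%, in the F-test and for the slope, and IDP3 for the slope, both higher at lower glucose. Of all genes, 4.35%, 2.22% and 5.4% passed in these 3 tests. Unadjusted, 4 of the 13 had a p under 0.05 at 0.25% against 2%, all higher, against 10.6% of all genes. PNC1, the nicotinamidase, had a signal of 1611, 1712 and 1611 at 0.25% glucose, 1544, 1457 and 1439 at 0.5%, 1224, 1250.4 and 1242 at 1%, against 1221, 1289.5 and 1271 at 2%. All 3 arrays at 0.25% lay above the 3 at 2%, and it rose by a log2 change of 0.38 (adjusted p = 0.0044). IDP3, the peroxisomal isocitrate dehydrogenase that supplies NADPH to the dienoyl-CoA reductase, had a signal of 31.4, 37.1 and 32.2 at 0.25% glucose, 26.9, 28.4 and 33.0 at 0.5%, 28.9, 28.1 and 25.7 at 1%, against 22.6, 19.8 and 21.9 at 2%. Its 3 arrays at 0.25% lay above the 3 at 2%, with a log2 change of 0.64 that missed the threshold (adjusted p = 0.0503), and its slope of 0.20 per halving passed (adjusted p = 0.0332). That slope did not pass in 8 of the 20 alternative fits that held the gene, with quantile normalization, with the ribosomal RNA covariate and without 1 of 6 arrays (0.25% replicates 2 and 3, 0.5% replicate 3 and each 2% replicate), where the adjusted p was between 0.0514 and 0.119. In these fits the slope was 0.15 with quantile normalization and 0.18 to 0.21 in the others. In the fatty acid uptake and activation list (5 genes) and the inheritance, fission and pexophagy list (7 genes), 0 passed in any of the 7 tests. At 0.25% against 2%, 1 and 0 of them had an unadjusted p under 0.05, against 16.4% of all genes. PEX34, a further peroxin, had a log2 change of 0.12 (adjusted p = 0.839).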

How the data were processed

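The values are the authors' deposited array intensities, 1 linear signal per probe set; no program for their summary is named in the sources used here. Each array already had a mean of 500 without its lowest and highest 2% of probe sets above 0, so these values cannot show a change in the total amount of RNA in a cell. Of 10928 probe sets, 5900 were above 0 and 5498 of these were named for 1 gene in the platform annotation, which left 5449 genes (the brightest probe set for 47 genes with several). Each of the 40 genes had 1 probe set, and no dim genes were left out.

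Signals were set to at least 1, log2 transformed and fitted in limma 3.58.1 (R 4.3.3) with a mean per glucose level over the 12 arrays and an intensity trend in the variance prior. Tests were two-sided, p-values were Benjamini-Hochberg adjusted over all 5449 genes with a threshold of 0.05, and the script was tested on simulated data. Those data held changes only in genes above percentile 25 and no deviations shared by replicate number. They therefore do not test the recovery of changes in dim genes. Arrays carry no read depth; 3 per level limit the precision. The 40 genes, their roles and the other lists were chosen with earlier results of these data known. Values were to be given for every array for any of the 40 that pass, and are given for the 3 largest changes above percentile 25 (TES1, PEX8 and PEX29); other genes shown so were picked after their values were seen.

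Same-numbered replicates deviated together over 4086 genes above percentile 25: their correlations were 0.12 to 0.53 at 0.25%, 0.19 to 0.47 at 0.5% and -0.03 to 0.61 at 1% against 2%, 0.29 to 0.48 at 0.5% against 1%, and 0.18 to 0.64 at 0.25% against 0.5%. By the limit set (each correlation over 0.1) the numbers pair the samples except at 1% against 2%. The tests reported carry no pair term; the fit with the number as a block is an alternative, made for all comparisons. Alternatives were an offset of 16 on the signals, median scaling, quantile normalization, filters on dim genes, the mean of probe sets, the replicate block, the compared levels alone, no intensity trend, array weights, a ribosomal RNA covariate and each array left out. Promoter motifs and protein targeting signals were not analysed here.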

Additional observations from a re-analysis of the deposited data

How the results depend on the processing

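The count of 0 passing genes among the 40 held in the 7 tests under the alternatives and without each of the 12 arrays in turn, wherever a fit was made, except for 3 cases of 1 gene each: array weights at 0.5% against 2% (PEX8), quantile normalization for the slope (PXA1), and the slope without replicate 1 at 0.25% (FAA2). The cause of each was not tested. The compared levels alone give no F-test or slope, and the filters on dim genes leave 18 or fewer of the 40. The median log2 change of the 40 at 0.25% against 2% turned to -0.0058 with quantile normalization and was 0.009 to 0.1278 with 1 array left out; at 0.5% it was -0.0654 to 0.0487 and at 1% -0.0745 to 0.0523, and median scaling gave 0.018 and 0.0077. The number of the 40 whose arrays did not overlap at 0.25% was 3 and 1 with dim genes left out at percentile 25 and at the median, filters that drop genes. It was 10 to 13 without 1 of the arrays compared, but leaving out an array can only keep or raise this count. The share over all genes was not counted in these settings, so the counts are not a result about the 40. Fits that leave the signals as they are give no value for this count.

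Counts over all genes moved more. With the replicate block, or paired fit, they were 562 at 0.25%, 407 at 0.5% and 49 at 1% against 2%, 17 at 0.5% against 1%, 13 at 0.25% against 0.5%, 371 at any level and 572 for the slope, and no call among the 40 changed. Array weights gave 567 at 0.5% against 2%, 44 at 0.5% against 1%, 53 at 0.25% against 0.5% and 335 at any level. Median scaling gave 120 at 0.5%, 16 at 1% and 7 at 0.5% against 1%, and quantile normalization 19 at 1% and 8 at 0.5% against 1%. The ribosomal RNA covariate gave 148 at 0.25%, 31 at 0.5% and 77 at any level. The compared levels alone gave 133, 48 and 6 at 0.25%, 0.5% and 1%, and no intensity trend gave 43 at 0.5%, 6 at 1% and 2 at 0.5% against 1%. Genes below the median left out gave 128 at 0.25%, 40 at 0.5%, 56 at any level and 161 for the slope. With 1 array left out the counts were 115 to 240 at 0.25% (115 without replicate 1 at 2%, 145 and 135 without replicates 1 and 3 at 0.25%), 33 to 79 at 0.5%, 6 to 12 at 1%, 2 to 5 at 0.5% against 1%, 2 to 9 at 0.25% against 0.5%, 66 to 118 at any level and 176 to 309 for the slope. Quantile normalization also changed the share of passing genes that were higher at 0.25% to 66.4%, from 76.8%, and for the slope to 61.9%, from 72.4%.

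A 2-fold rise at 0.25% lay inside the 95% interval for the enzymes POX1, POT1 and DCI1, and for CRC1 and PEX18 of other roles. These genes were all dim, but whether low signal was the cause was not tested. For 6 of the 9 enzymes the interval lay below a 2-fold rise. Of the 40 changes at 0.25%, 10 moved by more than the spread between replicates in some alternative. Beside POX1, TES1 and CTA1, given with their values above, YAT1 and YAT2 turned sign with quantile normalization (-0.06 and -0.03), ANT1 with the ribosomal RNA covariate (-0.11), and PEX28 without replicate 2 at 2% (0.08). PEX27 was 0.37 without that array, and PEX2 and PEX22 were 0.17 and 0.35 with the ribosomal RNA covariate. The mean ribosomal RNA signal was itself lower at 2%, so that covariate overlaps with the comparison.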
